A study of Drosophila melanogaster with 12 samples.

Results

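The RNA of normal adult heads of the fruit fly Drosophila melanogaster was described from 6 control libraries, named A to F, without a second genotype. A gene was taken as a member when its deposited value averaged at least 10 over these 6 libraries, which held for 10626 of the 13515 genes in the table. The genes just inside this limit were CG32119 and djl, with means of 10.01 and 10.02, and the genes just outside were CG5550 and CG9459, with 9.997 and 9.995. The mean over these libraries chose the members, so a high level is a description and not a finding.

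The control flies carried 1 copy of the driver Elav-Gal4 and no UAS transgene. In this driver the promoter of the pan-neuronal gene elav makes neurons produce the yeast activator GAL4, so the flies are driver-only animals and not a wild-type strain. Heads were taken at day 10 of adulthood, and each library was made from 18 pooled heads of males and females. The labels give no number of heads of each sex in a pool and no hour of collection. Libraries were stranded and depleted of ribosomal RNA.

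A fly head is mostly compound eye and brain, wrapped in cuticle, fat body, muscle and circulating haemocytes. The photoreceptors hold large stacks of membrane filled with rhodopsin, and the fat body, the counterpart of liver and adipose tissue, secretes lipid carriers, storage proteins, yolk proteins and antimicrobial peptides. The head also holds the neurons and the photoreceptors in which the circadian clock runs.

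A deposited value is a gene count normalised between libraries by the authors, and it grows with transcript length. Levels of different genes are therefore compared on a length-scaled scale, in parts per 1000000 (ppm) of a library's summed value per kb of the gene's median transcript length. Differences between pools are given on the deposited scale, and the spread of a gene is the SD of log2(value + 1) over the 6 libraries. Well-measured genes are those with a mean of at least 100 and no library at 0, 8372 in all.

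The libraries differed in ways that touch the results. Depth, estimated from the value of a single read pair, was 20 to 33.2 M pairs per library, and correlations between libraries across the well-measured genes ran from 0.949 to 0.990. Control C stood apart by transcript length: relative to each gene's own mean, its median was 0.36 higher on the log2 scale for transcripts under 500 bases and 0.21 lower for those of at least 4000 bases. Control F leaned the other way, from -0.31 to 0.14. Over all members, controls A to F held the highest value of 8.16%, 17.2%, 31.5%, 9.28%, 19.8% and 14% of the genes, and the lowest of 11.7%, 19.7%, 30.5%, 11.5%, 12.5% and 14.2%, with the 225 genes tied for the lowest counted for the first library. Counts of group members that were highest or lowest in a library are to be read against these shares. There were 1643 genes with a median of at most 2, called silent here, and these averaged 10.6 in control E and 4.54 in control F, against 0.9 to 2.13 in the other 4 libraries. Without E and F, 509 members (4.79%) would have averaged under 10.

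Markers of the cell types of a head were found as labelled. All 6 neuronal, 8 photoreceptor, 7 glial, 9 fat body, 9 muscle and 9 haemocyte markers were members. No salivary gland or accessory gland marker was a member, and 3 of 8 ovary markers with a row were, at no more than 1.32 ppm. Among these osk had 70.9 in control E and 0 to 11 in the other libraries, so it was a member through E. Of 5 testis markers with a row, betaTub85D was the single member, at 1.51 ppm. Of 8 gut markers 6 were members, with a highest level of 58 ppm and a median of 2.48 ppm. The glial markers ran from 27.2 to 1182 ppm, so the highest gut marker lay within their range. All 5 markers of trachea and epidermis were members. In such pools a lower value can come from fewer cells of a type or from less RNA per cell, and these cannot be told apart.

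The rhodopsin gene ninaE was the most abundant gene of the head by RNA, and yolk, mitochondrial, translation and vision genes were among those high in the list below it. ninaE (FBgn0002940, chromosome 3R, 19886255 to 19888206 in BDGP6, the assembly of dm6) encodes Rh1, the rhodopsin of the outer photoreceptors. It averaged 43200 ± 3760 ppm (SD, n = 6) and held 4.32% of the length-scaled signal and 3.57% of the deposited values. Its values in controls A to F were 1037359, 1105401, 1044808, 975177, 959114 and 889746, and its spread on the log2 scale was 0.11. The 4 most abundant genes together held 9.37% ± 1.99 of the length-scaled signal, the 100 most abundant 35.9% ± 2.43, and the 1000 most abundant 72.3% ± 1.85. Means of at least 1000 were reached by 4082 members, means of at least 10000 by 514 and means of at least 100000 by 16.

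After ninaE came the yolk protein genes Yp1, Yp2 and Yp3, at 21191 ± 8373, 15831 ± 7610 and 13349 ± 5659 ppm. The mitochondrial cytochrome oxidase genes mt:CoIII and mt:CoI followed at 12649 ± 2309 and 9159 ± 1450 ppm. The elongation factor eEF1alpha1, which carries aminoacyl-tRNA to the ribosome, reached 8788 ± 1110 ppm. The visual arrestin Arr2, which switches off activated rhodopsin, stood at 5857 ± 394.8 ppm. The alcohol dehydrogenase gene Adh reached 5358 ± 1506 ppm and calmodulin, Cam, the calcium sensor of many enzymes and channels, 4985 ± 1159 ppm. Among the 15 highest were also the small peptide gene BomS6 at 5493 ± 2680 ppm and the less studied genes CG4716, CG12158, CG17108 and CG6503, between 4680 and 7161 ppm. The level of BomS6 and CG12158 per length is uncertain, since their transcripts are 198 and 279 bases long. On the deposited scale long transcripts moved up: apolpp, the precursor of the main lipid carrier of the blood, ranked 3 with a mean of 400893, and Ank2, a giant neuronal ankyrin, ranked 10 with 119590.

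**Figure D1:**
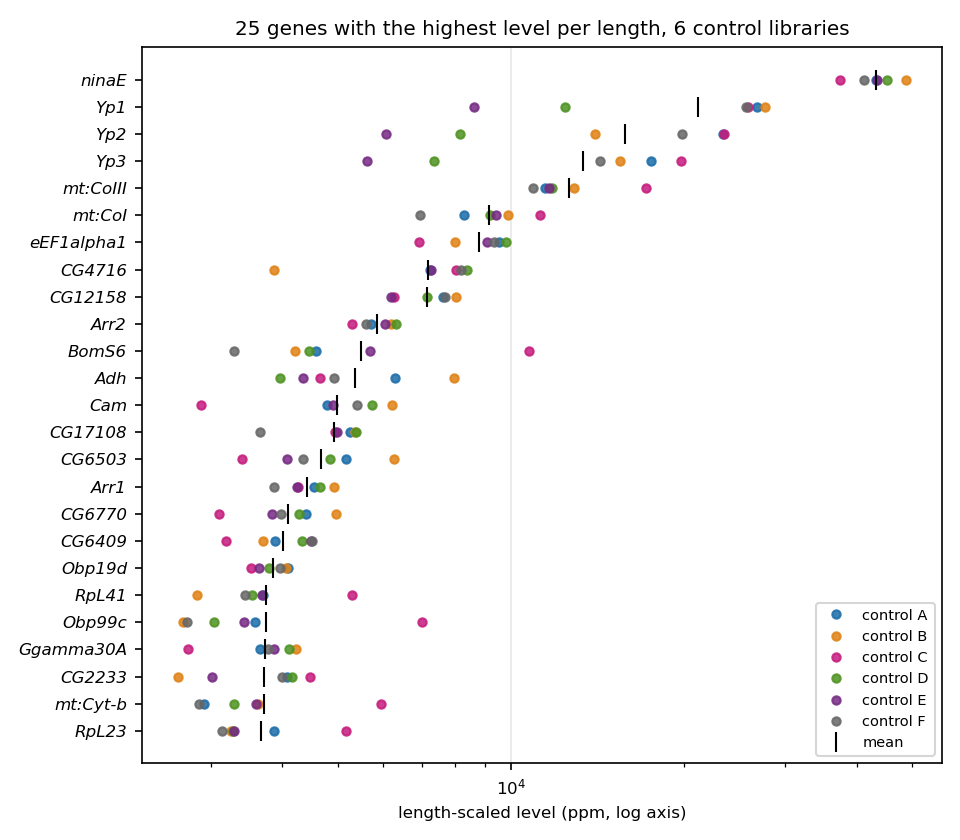
Length-scaled level (ppm, log axis) of the 25 genes with the highest mean level, with 1 point per control library and a bar at the mean. ninaE leads with libraries close together, while Yp1, Yp2 and Yp3 split into controls D and E on the left and the other 4 libraries on the right.

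The genes of phototransduction made up 6.51% ± 0.551 of the length-scaled signal. In this cascade light-activated rhodopsin turns on a Gq protein and a phospholipase, which opens the TRP channels. All 32 listed genes were members, and their summed deposited value ranged from 1559803 to 1870311, a range of 1.2-fold. Behind ninaE, the rhodopsins of the inner photoreceptors followed in the order Rh4 (888.3 ± 129.2 ppm), Rh3 (846.8 ± 44.3 ppm), Rh6 (340.1 ± 27.7 ppm) and Rh5 (96.7 ± 14.2 ppm). The ocellar rhodopsin Rh2 lay between Rh6 and Rh5, at 178.3 ± 15.8 ppm. Rh3 and Rh4 were closer to each other than their spread, and the other neighbours in this order did not overlap in mean ± SD. Rh4 was highest in control C, at 27025, where the other 5 libraries lay between 14927 and 16557.

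The other steps of the cascade were far less abundant than the receptor. The arrestin Arr1 reached 4415 ± 370.1 ppm and Ggamma30A, the gamma subunit of the visual G protein, 3728 ± 527.0 ppm. The channels trp and trpl stood at 725.9 ± 108.2 and 703.1 ± 164.0 ppm, close to the myosin kinase ninaC at 742.9 ± 119.6 ppm. The median spread of the list was 0.183, against 0.275 over all members, and 2 of its 32 genes had a range of at least 2-fold: the diacylglycerol kinase rdgA, with 10370 in control C and 20818 in control B, and the scavenger receptor ninaD, which brings carotenoids into cells for chromophore synthesis.

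Eye structure and pigment genes were also present. The corneal lens genes retinin and Cpr72Ec reached 586.1 ± 113.1 and 544.9 ± 61.6 ppm. Among the pigment genes Hn, which encodes phenylalanine hydroxylase, led with 311.8 ± 18.2 ppm, and the transporter gene w had values from 634.4 to 935.2. The gene cn, which encodes kynurenine 3-monooxygenase of the brown pigment pathway, was barely a member, with a highest value of 26.6 and a listed 0 in control B.

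The machinery of protein synthesis was the most abundant functional group listed. Of 93 cytosolic ribosomal protein genes 86 were members, and they held 12.8% ± 0.966 of the length-scaled signal. RpL41, RpL23 and RpS9 led with 3752 ± 818.6, 3666 ± 776.4 and 3345 ± 1112 ppm. The 13 genes encoded by the mitochondrial genome held 3.5% ± 0.718, and 42 nuclear genes of respiratory complexes II to V held 2.08% ± 0.138. ATPsynC, the ring subunit of the ATP synthase, led the latter group with 2274 ± 183.5 ppm.

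Genes of the fat body and lipid transport held 0.774% ± 0.18 of the length-scaled signal. They were led by apolpp at 2634 ± 377.4 ppm, Lsp2 at 975.7 ± 1254 ppm and the fatty acid synthase FASN1 at 805.9 ± 162.6 ppm. Lsd-1 and Lsd-2, which coat lipid droplets, stood at 556.6 ± 96.5 and 513.8 ± 76.9 ppm. Small secreted proteins of the antennae and the body surface were abundant as well. The odorant binding proteins, carriers of small hydrophobic molecules, held 1.48% ± 0.246 of the signal. Obp19d and Obp99c led at 3847 ± 232.2 and 3744 ± 1632 ppm. Of 179 odorant, gustatory and ionotropic receptor genes with a row, 79 were members, and 55 would remain so without controls E and F. The most abundant of them was Orco, the shared co-receptor of odorant receptors, at 22.7 ± 6.38 ppm.

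Neuronal genes were spread over many moderate levels. All 35 listed neuronal and synaptic genes were members and held 0.742% ± 0.172 of the length-scaled signal. The vesicle SNARE nSyb reached 1275 ± 283.6 ppm, the calcium sensor of release Syt1 376.0 ± 97.6 ppm, the RNA-binding protein elav 305.6 ± 77.0 ppm and the sodium channel para 188.7 ± 66.2 ppm. Of the neuropeptide genes, 30 of 31 were members. Nplp3 led with 1512 ± 590.4 ppm, ahead of CCHa2 at 311.6 ± 91.1 ppm and the ion transport peptide ITP at 147.5 ± 34.0 ppm. The clock neuropeptide Pdf reached 62.3 ± 11.7 ppm and the insulin-like peptide Ilp2 68.8 ± 11.2 ppm. Glial genes were led by the glutamine synthetase Gs2 at 1182 ± 196.3 ppm, and the glial transcription factor repo stood at 32.2 ± 6.61 ppm.

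**Figure D2:**
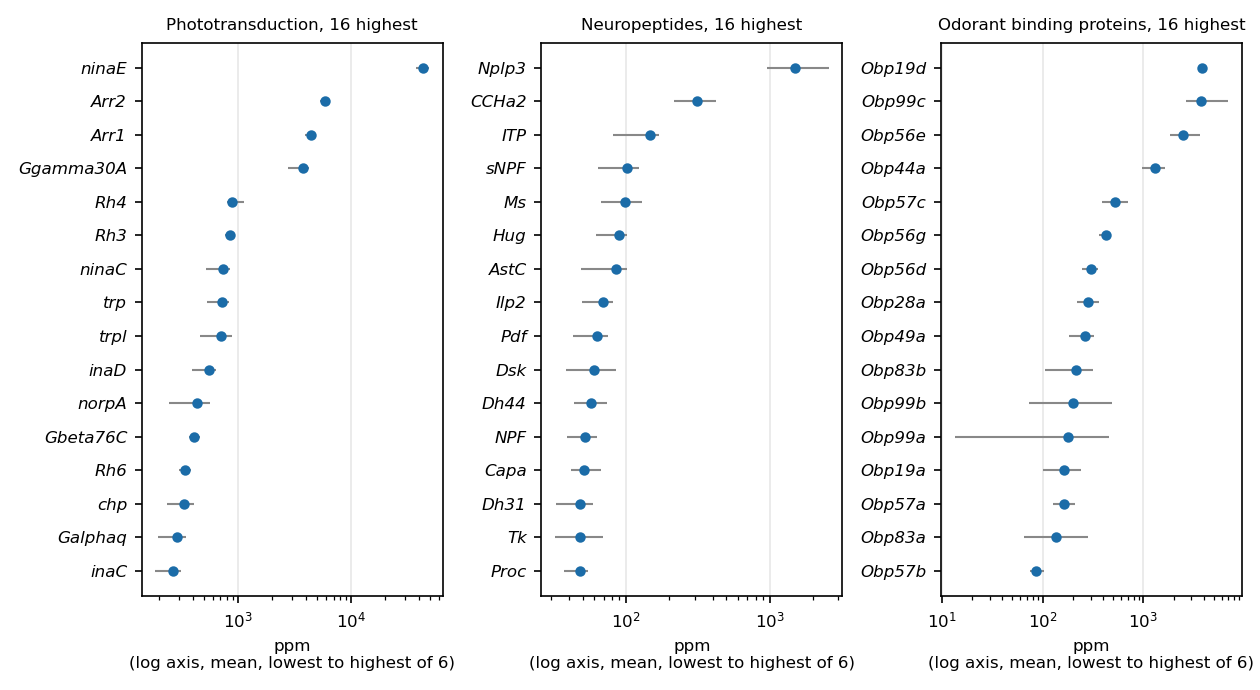
Mean length-scaled level (ppm, log axis) of the 16 highest members among phototransduction genes, neuropeptides and odorant binding proteins, with lines from the lowest to the highest of the 6 libraries. ninaE and Nplp3 stand clear of the rest of their groups, and Obp99a has the widest line.

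Most genes of the head varied little between pools. The median spread was 0.275 over all members and 0.23 over the well-measured genes, of which 585 (6.99%) had a spread under 0.1. A range of at least 2-fold between the highest and the lowest library was seen in 3728 of the 10626 members (35.1%) and in 1648 of the 8372 well-measured genes (19.7%). Control C alone held much of this: without it the counts were 2547 and 663 (7.92% of the well-measured genes). The steadiest gene was SPR, the receptor of the sex peptide, with values of 747.6, 754.6, 734.3, 763.0, 761.8 and 760.9 in controls A to F, a range of 1.04-fold. Others of the 10 steadiest were the splicing helicase Brr2, the capping protein cpb, the microtubule-associated protein Map205, the dynactin subunit DCTN2-p50, the actin-binding protein Chd64 and the tubulin alphaTub84D, each with a range of 1.05 to 1.08-fold. CG6686, CG6664 and CG41099 completed this group.

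Gene groups also differed in how steady they were. The vacuolar ATPase had a median spread of 0.149, translation factors 0.162, the muscle sarcomere 0.163 and activity-regulated genes 0.179. No gene of the 11 translation factors, the 16 glial genes or the 10 activity-regulated genes had a range of 2-fold. Among the steady genes, the immediate-early factor kay ran from 9213 to 11065 and Jra from 1039 to 1149. The most variable activity-regulated genes were Hr38, from 1284 to 2519, and sr, from 1249 to 2265. Their spreads were 0.35 and 0.31. At the other end, all 13 mitochondrially encoded genes, 14 of 15 antimicrobial genes on the Imd side and 18 of 20 on the Toll side had a range of at least 2-fold. Of the cytochrome P450 genes 49 of 74 did, and of the odorant binding proteins 19 of 30. Without control C these last 2 counts were 31 and 13, and the mitochondrial count was 4.

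**Figure D3:**
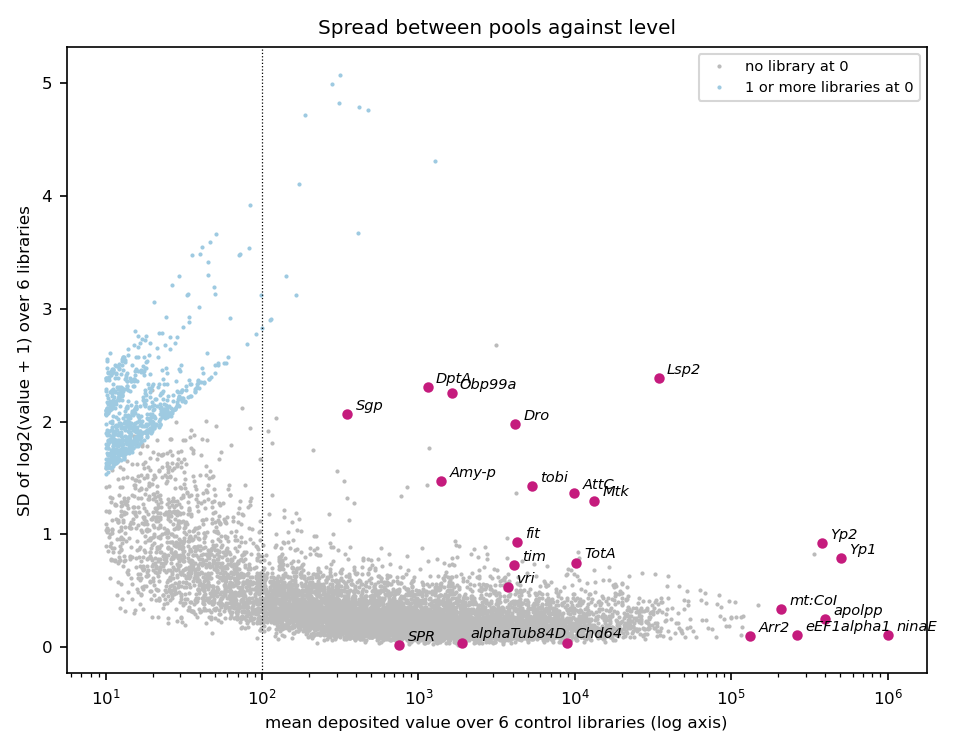
Spread between pools (SD of log2(value + 1) over 6 libraries) against mean deposited value (log axis) for all 10626 members; blue points are listed at 0 in at least 1 library, named genes are pink, and the dotted line marks a mean of 100. Abundant eye and translation genes lie at the bottom, and Lsp2, Obp99a, DptA and Dro lie far above genes of like level.

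Among the well-measured genes with a gene name, the largest SD belonged to Lsp2, which encodes a storage protein that the fat body secretes into the blood (FBgn0002565, chromosome 3L, 12129393 to 12131869). Its values in controls A to F were 62762, 109293, 19645, 1872, 2468 and 10388, a 58.4-fold range, where Sgp and DptA had ranges of 64.8-fold and 63.8-fold. Controls A and B were high, and D and E were low. Lsp1beta, a related storage protein, ran from 874.2 in control E to 13232 in control B. The alpha-glucosidase gene tobi, a target of insulin signalling and diet, was likewise highest in A and B and lowest in D and E, with 8223, 12671, 5520, 1441, 1029 and 2986 in controls A to F. apolpp, far more abundant, ran only from 306023 in E to 482598 in B. Over the 6 libraries Lsp2 and apolpp had a Pearson correlation of 0.91 (exact permutation p = 0.0194, adjusted p = 0.0472 over 18 pairs) and a Spearman correlation of 0.89 (adjusted p = 0.0857). Without the 2 libraries farthest from the median of Lsp2, controls B and D, r was 0.89.

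Some odorant binding proteins shared part of this pattern. Obp99a had 883.4, 3797, 4108, 135.4, 108.7 and 734.2 in controls A to F, a 37.8-fold range, with D and E again lowest. Obp99b was highest in A, at 4279, and lowest in E, at 597.5. Obp19d, the most abundant member of the family, ran from 43672 to 53421, and its spread of 0.13 was below the median of all genes.

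The yolk protein genes, the most abundant after ninaE, were low together in controls D and E. Yolk proteins are made by the fat body of females under the control of the sex-determination pathway. Yp1 (FBgn0004045, X chromosome, 10053811 to 10055498) had 644882, 630043, 723962, 268789, 191119 and 553793 in controls A to F. Controls D and E were lowest for Yp1, Yp2 and Yp3, with a gap to the other 4 libraries, and control C was highest for all of them. Their sum held 5.68%, 4.7%, 6.49%, 2.25%, 1.76% and 4.67% of the deposited value of controls A to F. The female-biased fat body gene fit, which encodes a satiety peptide, had 3909, 3564, 10692, 1874, 1820 and 3783. Its range was 5.88-fold with control C and 2.15-fold without it. Yp1 and Yp2 had r = 0.95 (exact permutation p = 0.00694, adjusted p = 0.0375, rho = 0.94, adjusted p for rho = 0.06), which fell to 0.59 over the 4 libraries other than D and E. For fit and Yp1 r was 0.83 (exact permutation p = 0.0236, adjusted p = 0.0472, rho = 0.94, adjusted p for rho = 0.06), and 0.98 without C and E. The 95% quantile of r over all pairs of well-measured genes was 0.84, so the r of fit and Yp1 over all libraries was not unusual. The 4 members listed as male-biased did not move as a group: 2 were highest in C, 1 in D and 1 in E, and their median pairwise correlation was -0.18. The gene to, which encodes the secreted protein takeout of the male fat body, was highest in C, at 3234, against 974.8 to 1625. CG13360 was also highest in C, at 1181, and lowest in D and E, at 690.4 and 702.2. CG10433 ran from 15404 in C to 19655 in D, with E second at 18393. This gene made up most of the summed value of the 4 members. That sum was also highest in D and E, at 22764 and 22197, against 19381 to 21105 elsewhere. The gene msl-2, whose protein belongs to the dosage compensation complex of males, ran from 1228 in A to 1477 in E.

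Many immune effector genes peaked in control E. Antimicrobial peptides are small proteins that the fat body and blood cells release under the Toll and Imd pathways. Of the 15 members on the Imd side, 9 were highest in E and 4 in C, where E was highest for 19.8% and C for 31.5% of all members. Without controls E and F, 13 of the 15 would remain members. A gene that enters through E or F tends to peak there by that rule. DptA, a diptericin active against Gram-negative bacteria (FBgn0004240, chromosome 2R, 18865765 to 18866260), had 217.8, 139.2, 1249, 78.9, 5036 and 136.5 in controls A to F. Control E was 4.03-fold above control C, the next highest. Dro, which encodes drosocin, had 1233, 492.1, 1990, 441.5, 19517 and 1252, and its range fell from 44.2-fold to 4.51-fold without E. DptB reached 4553 in E and 1350 in C, and 207.4 to 384.0 in the other 4.

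AttC, an attacin, was highest in control C, at 23470, followed by E at 17396 and by 1793 to 7213 elsewhere. AttA and AttB are near-identical copies whose reads are uncertain between them. Their sum was 517.1, 316.5, 1773, 298.0, 2660 and 310.3 in controls A to F. AttA and DptA had r = 0.98 (exact permutation p = 0.00278, adjusted p = 0.0375, rho = 0.94, adjusted p for rho = 0.06), and 0.96 without C and E. Among the negative regulators, the amidase PGRP-SC2 was 5.31-fold above the next library in E, at 1191, while the amidase PGRP-LB stayed between 265.1 and 322.9. The pathway members thus differed among themselves in spread, from 0.11 for PGRP-LB to 2.31 for DptA.

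On the Toll side 8 of 20 members were highest in E, 8 in C, and 14 were lowest in F, which was lowest for 14.2% of all members. Mtk, which encodes the antifungal peptide metchnikowin, had 10203, 2276, 12644, 7427, 37689 and 9246 in controls A to F. BomS3, a short Bomanin, had 18559, 23366, 15138, 19198, 43982 and 12612, and BomBc1 reached 1452 in E against 143.4 to 218.3 elsewhere. BomS6 was highest in C, at 37331. The antifungal peptide gene Drs was low in all pools, from 39.1 to 305.0, with E highest and C second. For Drs and BomS3 r was 0.67 (exact permutation p = 0.144, adjusted p = 0.26, rho = 0.66), which did not pass.

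Stress and immune genes that are not antimicrobial peptides shared the peak in E only in part. TotA and TotC, secreted Turandot proteins induced by stress, had their highest values in E, at 19657 and 4026, and their lowest in F, at 4579 and 908.6. Their r was 0.88 (exact permutation p = 0.00833, adjusted p = 0.0375, rho = 0.94, adjusted p for rho = 0.06), and 0.70 without E and F. GNBP-like3 reached 5787 in E against 962.3 to 1931 elsewhere. IM18, an immune-induced peptide, reached 4078 in E against 299.1 to 1114. The silent genes were also highest in E, and their part in these values was not tested.

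Heat shock genes did not share a single peak. Of the 7 members among the Hsp70 copies and Hsp68, 4 were highest in D, which was highest for 9.28% of all members. Of the 12 small heat shock genes 5 were highest in C, 3 in B, 2 in E and 1 each in D and F. This split is near that of all members, at 31.5% for C, 17.2% for B, 19.8% for E, 9.28% for D and 14% for F. The 6 copies of Hsp70, whose reads are uncertain between copies, summed to 4831, 4632, 7025, 9968, 5351 and 7708 in controls A to F, highest in D. Hsp26 was also highest in D, at 503.4, against 249.9 to 374.6 in the others. The alpha-crystallin-like gene l(2)efl was highest in E, at 1162, against 656.0 to 881.2. Hsp22 was highest in C, at 2500, and its r with Hsp26 was 0.32 (exact permutation p = 0.553, adjusted p = 0.829, rho = 0.37). The constitutive chaperones Hsc70-4 and Hsp83 averaged 1679 ± 185.1 and 1016 ± 228.7 ppm, and Hsp83 was lowest in B, at 25972, where the other 5 lay between 39509 and 48775.

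The genes tim, per, vri and Pdp1 of the circadian feedback loop were highest in control B, as were 10 of the 17 listed clock genes, against 17.2% of all members. In this loop CLK and CYC activate per, tim, vri and Pdp1, and the products of per and tim then repress CLK and CYC. tim (FBgn0014396, chromosome 2L, 3493986 to 3508119) had 3950, 9586, 2904, 2696, 2549 and 2797 in controls A to F. Control B was 2.43-fold above A, the next highest, and the other 4 lay close together. per had 1473, 2635, 1108, 1098, 986.5 and 1004, vri had 3792, 7114, 2555, 3096, 3080 and 2949, and Pdp1 had 19823, 31099, 13308, 19319, 16566 and 19677. A was second and B first for each of these. Without B the range of tim was 1.55-fold, of per 1.49-fold, of vri 1.48-fold and of Pdp1 1.49-fold.

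The activator Clk and the photoreceptor of the clock behaved otherwise. Clk had 2359, 2346, 2074, 2392, 2301 and 2781. The other activator, cyc, ran only from 718.7 to 949.5. The blue-light receptor cry was lowest in B, at 3600, and highest in C, at 5819. tim and per had r = 0.99 (exact permutation p = 0.00694, adjusted p = 0.0375, rho = 0.94, adjusted p for rho = 0.06), and 0.59 over the 4 libraries other than A and B, so that much of the relation rests on those. For vri and Pdp1 r was 0.93 (exact permutation p = 0.0125, adjusted p = 0.0417, rho = 0.83, adjusted p for rho = 0.131), and 0.83 without A and B. For tim and Clk r was -0.06 (exact permutation p = 0.826, adjusted p = 0.93, rho = -0.09). The 4 well-measured genes most like tim by r over the 6 libraries were per (0.992), Inx2 (0.990), Not11 (0.987) and Usp8 (0.979). Inx2 encodes an innexin of gap junctions, Not11 a subunit of the deadenylase complex and Usp8 a ubiquitin protease. Usp8 was the only one of the last 3 with a 2-fold gap, at 1902 in B against 590.2 to 893.9. Among all 8372 well-measured genes, 44 had an r of at least 0.9 with tim, and pairs of genes taken at large had r between -0.82 and 0.84 in the middle 90% of cases.

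**Figure D4:**
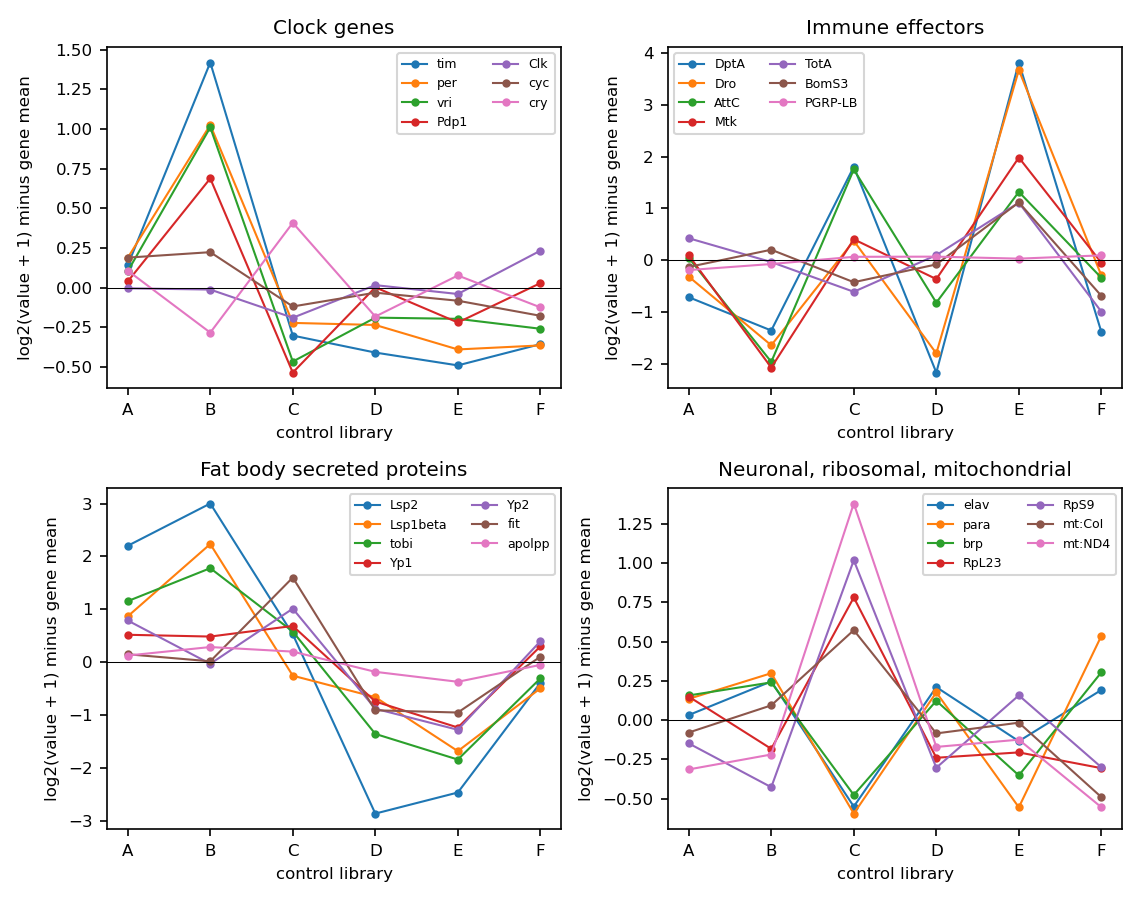
Difference of log2(value + 1) from the gene's own mean in each of control libraries A to F for clock genes, immune effectors, secreted fat body proteins, and neuronal, ribosomal and mitochondrial genes. Control B is the peak of tim, per, vri and Pdp1 but not of Clk, cyc follows weakly, control E is the peak of DptA, Dro and Mtk, and D and E are low for Lsp2, tobi and the yolk proteins.

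Control B lay at least 2-fold below the next library for 43 well-measured genes, where each of controls A, D, E and F did so for 2 to 4 genes and C for 47. They form no single listed group, but some are related. They include the neprilysin-like genes Nepl17, Nepl12, Nepl6, Nep7 and Nep6 and the Nimrod genes NimB2 and NimC4. Mtk, AttC and Cyp304a1 of the listed groups are also among them. Others are Pop1, a subunit of the RNA-processing enzyme RNase P, the caspase gene Strica and many genes without a known role. These and the examples that follow were picked after their values were seen. The clotting factor of the blood fon had 16074 in B and 36708 to 56652 in the others. NimB2, a secreted Nimrod protein, had 11051 against 22863 to 43713. Gbp2, a growth-blocking peptide gene, had 21562 in B and at least 47200 elsewhere. Idgf1, a chitinase-like growth factor, had 2970 against 7112 to 8145, and the neprilysin-like peptidase gene Nep6 had 3839 against 9158 to 13940. Of the 74 P450 members 42 were lowest in B, which was lowest for 19.7% of all members, among them Cyp9b2, with 7226 against 12534 to 26768, and Cyp304a1, with 108.8 against 469.3 to 2183. P450 enzymes oxidise foreign compounds and hormones. The most abundant of them, Cyp4g1, which makes the hydrocarbons of the cuticle, was lowest in A, at 34879, and highest in E, at 62337. Cyp4g1 and the desaturase gene Fad2 had r = 0.90 (exact permutation p = 0.0236, adjusted p = 0.0472, rho = 0.89, adjusted p for rho = 0.0857), and 0.87 without A and B.

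Digestive and haemocyte genes were split over the pools. The amylase copies Amy-p and Amy-d, whose reads are uncertain between them, summed to 11572, 2995, 10778, 4279, 10518 and 7989 in controls A to F. Of 28 digestive enzyme members 13 were lowest in B and 13 highest in C, and of 22 haemocyte genes 10 were lowest in B and 13 highest in C. Among all members 19.7% were lowest in B and 31.5% highest in C. The collagen gene Col4a1 had 11202 in B and 12789 to 19919 elsewhere. Hml, which encodes hemolectin, went the other way and was highest in B, at 9174. For Hml and the phagocytic receptor gene NimC1 r was 0.23 (exact permutation p = 0.707, adjusted p = 0.848, rho = -0.03).

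Control C separated ribosomal and mitochondrial from neuronal genes, along with transcript length. Over all members C was highest for 31.5%. Of the 86 ribosomal protein members 72 were highest in C, with RpS9 at 73232 against 26886 to 40329 and RpL23 at 49131 against 23124 to 31716. A 2-fold range was seen in 20 of the 86 (23.3%) with C and in 0 without it. All 86 were well measured, and the shares over all well-measured genes were 19.7% and 7.92%. The share with C was thus near that of genes at large. Of the 13 mitochondrially encoded genes 11 were highest in C. mt:ND4 had 20802 there and 5440 to 7332 elsewhere, and mt:CoI had 302700 against 144815 to 217170. Of the 35 nuclear complex I members 30 were highest in C. A 2-fold range was seen in 15 (42.9%) with C and in 1 (2.86%) without it, against 35.1% and 24% of all members. After each library was recentred within bins of transcript length, the ribosomal proteins of C lay 0.08 above their own mean in median log2 value, instead of 0.35. Complex I kept 0.23 of 0.47 and the mitochondrially encoded genes kept 0.57 of 0.81.

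The neuronal list did the opposite. Of its 35 members 29 were lowest in C and 5 in E, and 20 were highest in B and 13 in F. Of all members 30.5% were lowest in C and 12.5% in E, and 17.2% were highest in B and 14% in F. elav had 11288, 13095, 7537, 12771, 10058 and 12612 in controls A to F, and para had 19296, 21611, 11628, 19853, 11955 and 25485. The median correlation between pairs of the 35 genes was 0.91, where that of all pairs of well-measured genes was -0.00. Without control C the median of the 35 genes was again 0.91. After recentring by length the median of the list was 0.80, and C then lay 0.24 and E 0.17 below the list's own mean on the log2 scale. elav and the active zone gene brp had r = 0.91 (exact permutation p = 0.0139, adjusted p = 0.0417, rho = 0.71, adjusted p for rho = 0.272), and 0.35 over the 4 libraries other than C and E. The glial list had a median correlation of -0.05, and repo and Gs2 had r = 0.25 (exact permutation p = 0.643, adjusted p = 0.848, rho = 0.26). The muscle list had a median correlation of 0.20, and the thick filament gene Mhc and the troponin gene up had r = 0.44 (exact permutation p = 0.361, adjusted p = 0.591, rho = 0.43).

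**Figure D5:**
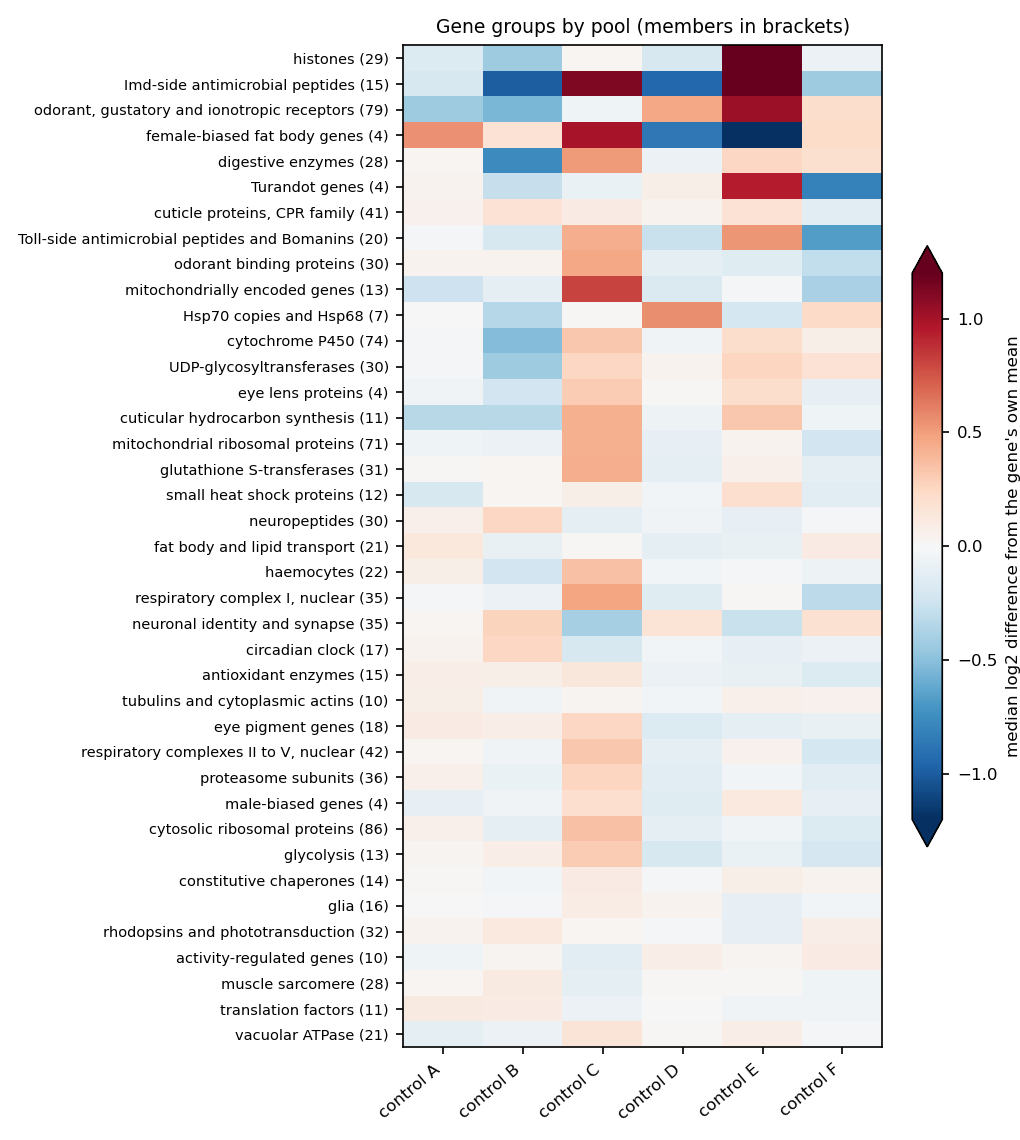
Median difference of log2(value + 1) from each gene's own mean, by gene group (rows, number of members in brackets, most variable at the top) and control library (columns); differences beyond the ends of the scale take the end colours. Red cells gather in control E for the Imd peptides, the histones, the odorant, gustatory and ionotropic receptors and the Turandot genes. Mitochondrially encoded genes are red in control C. Blue cells gather in control B for P450 genes and in D and E for the female-biased genes.

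Peptide and conjugating-enzyme genes also differed by pool. Of 30 neuropeptide members 15 were highest in B, against 17.2% of all members, among them Nplp3, with 13458, 19830, 13404, 10750, 7479 and 6960 in controls A to F. A 2-fold range was seen in 12 of the 30 (40%), near the 35.1% of all members. Pdf ran from 404.7 in E to 799.2 in C, and ITP from 2525 in C to 4252 in B. Of the 31 glutathione S-transferases, which conjugate toxic compounds, 20 were highest in C, against 31.5% of all members. A 2-fold range was seen in 13 (41.9%) with C and in 4 (12.9%) without it, against 35.1% and 24% of all members. The 30 UDP-glycosyltransferase members, which act in the same defence, were lowest in B in 17 cases, against 19.7% of all members, and 17 of the 30 had a 2-fold range. Proteasome subunits had a median spread of 0.226, glycolytic enzymes 0.203 and antioxidant enzymes 0.243. The superoxide dismutase Sod1 was highest in C, at 14620, against 6134 to 8591 elsewhere.

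For other genes of interest the best matches over the 6 libraries were mostly genes with small ranges. They were chosen by r, so a highest library shared with the gene they match follows largely from that choice. The 4 well-measured genes with the highest r to ninaE were babos, l(2)37Cb, CG10863 and Haspin, from 0.982 down to 0.970, and all had their highest value in B and lowest in F. The best matches of fit were dsb (0.994), DCAF12 (0.991), vari (0.989) and CG44774 (0.986), all highest in C. Antdh, which encodes a dehydrogenase of the antenna, was the best match of the antennal Obp83a at 0.992, and was highest in C at 2761. For Hsp26 the matches were CG30349, Obp84a, Nsun2 and gammaTub23C, all highest in D. Those of Mhc were CG14995, Isha, Opa1 and Liprin-gamma, with r of 0.987 to 0.992. For Drs they were Ing3, Ggt-1, ave and CG32409, all highest in E with C next, and for TotA they were CG17359, GAPsec, CG2182 and CG12129. At an r of 0.9 or more, fit had 150 matches, Mhc 381 and Hsp26 18.

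The other pairs of genes that were examined did not pass. ninaE and trp had r = 0.05 (exact permutation p = 0.943, adjusted p = 0.994, rho = 0.09). Obp83a and Obp19d had r = 0.00 (exact permutation p = 0.994, adjusted p = 0.994, rho = -0.43), and the lens genes Cpr72Ec and Crys 0.13 (exact permutation p = 0.682, adjusted p = 0.848, rho = 0.49). Of the 18 pairs 9 passed an adjusted p of 0.05 by Pearson's r and 0 by Spearman's rho. The smallest p that 720 pairings can give for r is 0.00139, and the lowest adjusted p for rho was 0.06. Correlations within controls A to D alone, or within E and F alone, were not computed. Each p-value is the share of the 720 pairings of libraries that gave a correlation at least as large in absolute size. Many genes share a pattern over these libraries, such as that of control C. A small p therefore does not show a relation particular to the pair. The pairs were also chosen with earlier results of these data known. The labels describe the pools as separate samples of the same genotype.

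The 300 most variable well-measured genes fell into a few shared patterns when clustered by correlation into 8 clusters. The largest held 158 genes, of which 139 were highest in C and 84 lowest in B, with 11 P450 genes, AttC, Mtk and fit among them. Another held 60 genes, 34 highest in E and 24 in C, led by DptA, Sgp and Dro. The next held 48 genes that were all lowest in C, with pre-lola-G, gt and slou among its leading genes and a median transcript of 2322 bases against 1282 in the largest. The fourth held 26 genes, 12 highest in B and 11 in C, with 13 lowest in E and 10 in D. It was led by Lsp2, Obp99a, tobi and Lsp1beta and also held Yp1, Yp2, Yp3 and tim. The remaining clusters held 4, 2, 1 and 1 genes. A principal component analysis of the same genes put 49.1% of the variance on a first axis with C at one end, and 20.4% on a second axis with E at one end and B at the other.

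Some variable genes belonged to no listed group, and a few have unsure counts. The identifier FBgn0283462, which has no name in the annotation used, had the largest spread of all well-measured genes, with 8268, 128.7, 1465, 122.3, 6985 and 1906 in controls A to F. Sgp had 14.5, 210.9, 941.2, 231.2, 576.0 and 126.3, with A 8.2-fold below the next library on the value + 1 scale. Vago, a secreted antiviral factor, had 4886 in C against 772.8 to 1526 elsewhere. CG8745 was highest in A, at 3539, where the others lay between 1036 and 1632. The trans-spliced exons counted as pre-mod(mdg4)-B and pre-lola-G, the Stellate copy SteXh:CG42398 and the histone copies vary with how reads are shared among near-identical or overlapping genes. Of the 29 histone members, 25 had a 2-fold range and 12 were well measured, and His2B:CG33870 was listed at 0 in A and above 0 in the other 5. In all, 761 members were listed at 0 in at least 1 library.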

How the data were processed

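Head RNA of 6 control libraries was analysed; the 6 libraries of the other genotype in the table were not used here. The submitters' processing notes name Trimmomatic 0.36 and FastQC for the reads, Salmon 0.13.1 for quantification and dm6 as the build. Before deposit, the authors turned gene counts into a normalised signal with DESeq2, per the submitters' processing notes, after joining the Salmon output of a pair of lanes for each library, per the file headers. The annotation used and how transcripts were summed to genes is not given in the sources used here. Values are not whole, so no count model was used. Depth was estimated from the value of 1 read pair, 0.842 to 1.51.

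Symbols, positions and median transcript lengths came from the Ensembl annotation of BDGP6, which named 13433 of 13515 identifiers; the other 82 (1.12% to 1.31% of the signal) were left out of the length-scaled levels. Spread was computed on log2(value + 1). Of 18 gene pairs, Pearson and Spearman correlations were tested with exact two-sided permutation over 720 pairings and adjusted by the Benjamini-Hochberg method. The 300 most variable well-measured genes were clustered by average linkage on 1 - r. Python 3.11.15, numpy 2.4.6, pandas 2.3.3 and scipy 1.17.1 were used, and the steps were tested on simulated data. Members, gene lists and pairs were chosen with earlier results of these data known. Named genes are the highest by level, the most and least variable, the leading members of each list and cluster, the paired genes and the closest matches of 8 genes, and not all of these are printed. Genes outside this rule, such as the further rhodopsins, cyc, cry, msl-2, w, PGRP-LB, Obp99b, GNBP-like3, Idgf1, Nep6, NimB2, fon, Gbp2, Pop1, Strica and Vago, were picked after their values were seen. Alternatives changed the pseudocount, filter, scaling, number of clustered genes and libraries. The precision of low genes is limited by the depth, and copies that share reads are uncertain.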

Additional observations from a re-analysis of the deposited data

Results flagged for a closer look

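A single library stood far from the other 5 for 45 of 183 values examined, by Dixon's ratio of a gap to the whole range at its 95% level. Chance alone flags about 1 in 20 values, and 11.5% of the 8372 well-measured genes met the same limit. Many of the values below were named because they vary, so their share says nothing further.

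Control E was set apart in the immune and stress genes. Its values were 5036 for DptA, 4553 for DptB, 19517 for Dro, 37689 for Mtk, 1191 for PGRP-SC2, 4078 for IM18, 1452 for BomBc1, 43982 for BomS3, 5787 for GNBP-like3 and 4026 for TotC. It also stood apart for the copy gene SteXh:CG42398, at 425.1, and for djl, at 36.1, at the edge of membership.

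Control B was set apart in the clock group, at 9586 for tim, 2635 for per, 7114 for vri and 31099 for Pdp1. The same held for Usp8, at 1902, Inx2, at 6434, and Not11, at 370.6. These were chosen by their r with tim, and their peak in B follows from that choice. Control B was also far above the rest for Lsp1beta, at 13232, and far below them for Idgf1, at 2970, and Strica, at 53.9.

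Control C was set apart in the summed ribosomal protein genes, at 1924595, and the summed mitochondrially encoded genes, at 922950. Single genes of these groups were RpS9 at 73232, RpL23 at 49131, RpL41 at 29744, mt:CoIII at 238096 and mt:ND4 at 20802. Secreted and antennal proteins flagged in C were Obp99c at 70351, Obp83a at 4186, Antdh at 2761, BomS6 at 37331, Vago at 4886 and fit at 10692. Rh4 at 27025, Sod1 at 14620, NimC1 at 2245, to at 3234, vari at 2124 and CG44774 at 4749 were high there as well, and ITP was low, at 2525. Control A was high for Obp99b at 4279, Lsd-1 at 16508 and CG8745 at 3539.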

How the results depend on the processing

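The share of signal held by the 100 most abundant genes moved by less than the spread between libraries under every alternative run, and so did the median spread under other pseudocounts and scalings. A filter at a mean of 1, 50 or 100 changed the count of genes with a 2-fold range from 3728 to 6354, 2127 or 1662, and the median spread at a mean of 1 was 0.348. Without each library in turn the median spread ran from 0.217 (without control C) to 0.289. By Spearman's rho 0 of 18 pairs passed. Leaving out a library left 0 to 4 passing pairs, with fewer pairings to permute. Cluster sizes were not stable: with 200 genes Yp1 stood among 10, DptA among 127 and tim among 17, instead of 26, 60 and 26. With equal totals DptA stood among 153. Without E and F it stood among 98 and tim among 3, and Yp1 was no longer among the 300 most variable genes. After recentring within 20 bins of transcript length, chosen after seeing the data, Yp1 stood among 16; the cause of these shifts was not tested.

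Correlations that did not pass also changed sign. Hml with NimC1 gave -0.04 at equal totals and -0.03 by rho. Obp83a with Obp19d gave -0.26 at equal totals, -0.52 after recentring on the median, -0.82 within length bins and -0.43 by rho. tim with Clk gave 0.13 after recentring on the median. With 1 library left out, tim and Clk ran from -0.28 to 0.26, Drs and BomS3 from -0.07 to 0.94, and ninaE and trp from -0.43 to 0.57. Hml and NimC1 ran from -0.46 to 0.73, Cpr72Ec and Crys from -0.26 to 0.49, repo and Gs2 from -0.02 to 0.66, and Obp83a and Obp19d from -0.89 to 0.32. No paired analysis was possible because a single genotype was described and the library letters pair nothing within it. Low genes are limited by depth, and 761 members listed at 0 in some library have no reliable fold.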
